A study of Mus musculus with 2 samples.

Results

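The miR-106a-363 cluster is a group of 6 miRNA hairpins on the mouse X chromosome, Mir106a, Mir18b, Mir20b, Mir19b-2, Mir92-2 and Mir363. Its reads were the small RNA tags found in full, with no mismatch, within these 6 of the 1174 miRNA hairpins that GENCODE annotates in the mouse, and they were counted on 12 arms. A tag here is a distinct read sequence with its count. In all, 176 distinct tags matched the 6 hairpins, with 52346 reads in the library of DMSO-treated cells and 39884 reads in the library of AICAR-treated cells. Of these tags, 155 matched no other hairpin, 9 also matched Mir19b-1 and 12 also matched Mir92-1, which both belong to the miR-17-92 cluster on chromosome 14. No tag matched more than 1 of the 6 hairpins, and no tag matched any hairpin outside these clusters. Among the other annotated transcripts, only Mir17hg, the host transcript of miR-17-92, held any of the tags.

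MiRNAs of a cluster are cut from a common primary transcript, and each hairpin yields a short duplex whose 5p and 3p strands come from its arms. One strand is usually loaded into an Argonaute protein and kept, and the other is degraded. A miRNA recognizes its targets mainly through its seed, bases 2 to 8 counted from the 5′ end, so paralogs with the same seed are thought to repress overlapping sets of mRNAs. The miR-106a-363 cluster is a paralog of miR-17-92 and of miR-106b-25, a family known for promoting cell cycle progression and survival in proliferating cells, including ES cells. Known targets of the family include the cell cycle inhibitor Cdkn1a and the pro-apoptotic factor Bcl2l11.

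J1 is a line of mouse embryonic stem (ES) cells, and AICAR enters cells and activates AMP-activated protein kinase. Per the labels the cells were grown on gelatin with serum replacement and LIF, whereas the study names serum for the cultures of its PCR assays. They received 1 mM AICAR or the same volume of its solvent DMSO (0 mM AICAR) for 24 h. The sRNA of 1 culture was sequenced for each condition, so no difference below has a replicate check, and a fold change compares these libraries and not the treatments as such. In RNA from whole cultures, fewer cells that express a miRNA and less of it per cell cannot be told apart.

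The DMSO library held 18870345 clean reads and the AICAR library 21091226, of which 11.6% and 15.7% matched a miRNA hairpin. Levels are given as RPM (reads per 1000000 clean reads of the library), a fold change is the AICAR value over the DMSO value, and its interval is the 95% exact (Clopper-Pearson) interval of the read counts, which covers counting error only. A count of 3 reads, the floor for a fold change, is 0.159 RPM with DMSO and 0.142 RPM with AICAR. Across the 508 miRNAs that reached 1 RPM in a library the median fold change was 1.10 (log2 0.13), and with other scalings that median was -0.31 (log2, relative to the reads assigned to miRNAs), -0.03 (TMM) and 0.04 (median ratio). Of the miR-290 cluster, the defining miRNAs of mouse ES cells, 6 of 7 listed hairpins held 27.2% of the hairpin reads with DMSO and 34.7% with AICAR. These shares leave out Mir292, which was listed under another name than the annotation uses. Its 3p arm had 25560 reads with DMSO and 46353 with AICAR, and its 5p arm 11238 and 22815. Mir122, a liver marker, was at 2.91 and 25.4 RPM, the let-7 hairpins of differentiated cells at 9927 and 16224 RPM, the listed neuron hairpins at 257 and 410, muscle at 157 and 203, fibroblast at 92.3 and 91.5 and blood at 16.1 and 14.8 RPM. Tags shorter than 21 nt made up 9.49% of hairpin reads with DMSO and 3.81% with AICAR. The part of these differences between the libraries in the values of the cluster was not tested, except where the short tags are named below.

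The cluster lies on the minus strand of the X chromosome, at chrX:52741693-52742567 of GRCm38, and spans 875 nt. Mir106a is the first hairpin in the direction of transcription (52742503 to 52742567), and its 5′ end overlaps an exon of the noncoding transcript Kis2. It is followed by Mir18b (52742331 to 52742413), Mir20b (52742113 to 52742192), Mir19b-2 (52741983 to 52742066), Mir92-2 (52741838 to 52741928) and Mir363 (52741693 to 52741767), for which no other gene is annotated on either strand. The miR-17-92 cluster has the same order of related hairpins over 836 nt of an exon of Mir17hg on chromosome 14 (115043671 to 115044506), except that it has Mir19a where this cluster has none and lacks a counterpart of Mir363.

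The sequences show which members can be told from their paralogs. They are RefSeq mature miRNAs (GRCm38.p6) in RNA letters with the seed in capitals, printed for the 5p and 3p strands with the most reads and for the paralogs they were set against. The exception is miR-363-5p, for which the most read tag is printed in DNA letters as deposited.
miR-106a-5p: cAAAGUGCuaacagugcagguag
miR-17-5p: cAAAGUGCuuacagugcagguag
miR-20b-5p: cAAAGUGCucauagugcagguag
miR-20a-5p: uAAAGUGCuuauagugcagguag
miR-18b-5p: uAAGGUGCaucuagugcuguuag
miR-18a-5p: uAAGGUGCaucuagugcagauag
miR-19b-3p: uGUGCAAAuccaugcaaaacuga
miR-92a-3p: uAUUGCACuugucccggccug
miR-363-3p: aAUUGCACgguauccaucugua
miR-92a-2-5p: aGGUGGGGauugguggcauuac
miR-363-5p: cAGGTGGAacacgatgcaattt

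The 5p strands of Mir106a and Mir20b carry the miR-17 seed, the 5p strand of Mir18b carries the miR-18 seed, miR-19b-3p the miR-19 seed, and miR-92a-3p and miR-363-3p share the miR-92 seed although the rest of their sequences differs. With positions counted from 1 at the 5′ end, miR-106a-5p differs from miR-17-5p by U10A alone, and miR-20b-5p differs from miR-20a-5p by U1C and U10C. In miR-18b-5p the differences from miR-18a-5p are A18U and A20U, both near the 3′ end. The mature miR-19b-3p and miR-92a-3p are identical to the products of Mir19b-1 and Mir92-1, so their reads cannot be divided between the X chromosome and chromosome 14 unless a tag runs on into bases that differ. The 5p strands of Mir92-2 and Mir363 have no identical copy, and each of their reads belonged to this cluster alone.

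Reads that matched only this cluster were lower in the AICAR library. Within the limits set around each arm (a start within 2 nt and an end within 4 nt of the most read tag), they numbered 30492 with DMSO (1616 RPM) and 20023 with AICAR (949 RPM), a fold change of 0.588 (0.577 to 0.598). They made up 1.40% of the miRNA reads of the DMSO library and 0.605% of those of the AICAR library. Each of the 5 hairpins with more than 3 reads of its own in a library was lower with AICAR, from 0.571-fold for Mir363 to 0.760-fold for Mir20b, and the fold changes were 0.726 for Mir106a, 0.658 for Mir18b and 0.599 for Mir92-2. Mir19b-2 had 3 reads of its own in each library, which is too few for a fold change.

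The total rests mainly on Mir363 and Mir92-2. Mir363 held 69.4% of the cluster's own reads with DMSO and 67.4% with AICAR, and Mir92-2 held 24.6% and 25.1%. Without Mir363 the fold change was 0.625, and without both it was 0.732 (0.683 to 0.784), from 1827 and 1495 reads. Along the cluster the own reads were far from even, with 21159 and 7506 for Mir363 and Mir92-2 at the 3′ end in the DMSO library, against 616 for Mir106a, 298 for Mir18b and 910 for Mir20b.

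**Figure D1:**
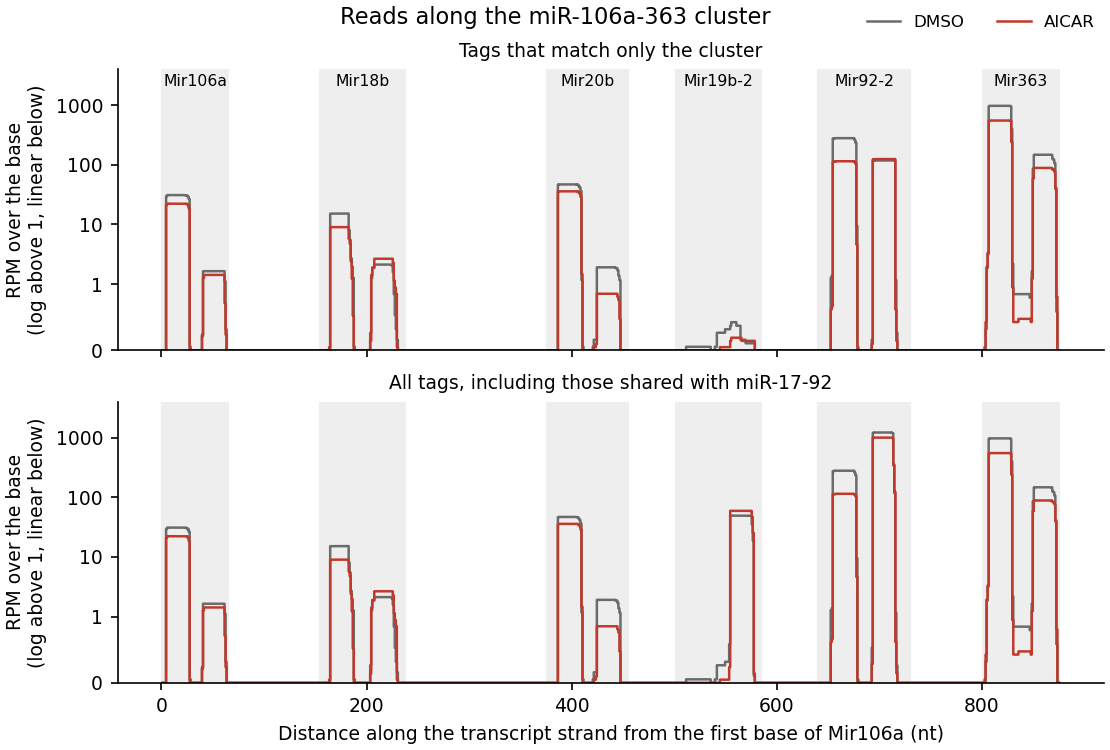
RPM over each base (log scale above 1, linear below) of the miR-106a-363 cluster against the distance in nt from the first base of Mir106a, for the DMSO library (grey) and the AICAR library (red), with the 6 hairpins shaded. The upper panel holds tags that match only the cluster and the lower panel all tags; the 3p peaks of Mir19b-2 and Mir92-2 rise in the lower panel, where the 21764 and 19790 reads shared with miR-17-92 are added.

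Of the 12 arms, 11 reached 1 RPM in a library, and miR-19b-2-5p had 1 read with DMSO and 0 with AICAR. Among the 11, none was at least 2-fold higher with AICAR, against 12% of all 508 miRNAs, and 2 were at most 0.5-fold, against 10%. The interval lay below 1 for 7 of the 11, against 27% of all miRNAs, and above 1 for 2, against 38.8%. The 2 above 1 were miR-19b-3p and miR-92a-3p, counted there with the reads of both genomic copies, and relative to miRNA reads their fold changes were 0.887 and 0.760. The median fold change of the 11 arms was 0.719. The same median was 1.21 for the 9 arms of miR-17-92 and 1.02 for the 5 arms of miR-106b-25 that reached 1 RPM. In miR-17-92, 6 intervals lay above 1 and 1 below, and in miR-106b-25 there were 2 of each. The other listed relatives, the 4 arms of miR-92b and miR-32, had a median of 0.874. Of their intervals 3 lay below 1 and 1 above, and 1 arm was at most 0.5-fold. These counts are relative to clean reads, and relative to miRNA reads the fold changes of miR-17-5p (0.899), miR-20a-5p (0.822) and miR-106b-5p (0.895) turned below 1 as well. These arms share transcripts and 2 of them share reads between the clusters, so the counts describe the lists and are no test.

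**Figure D2:**
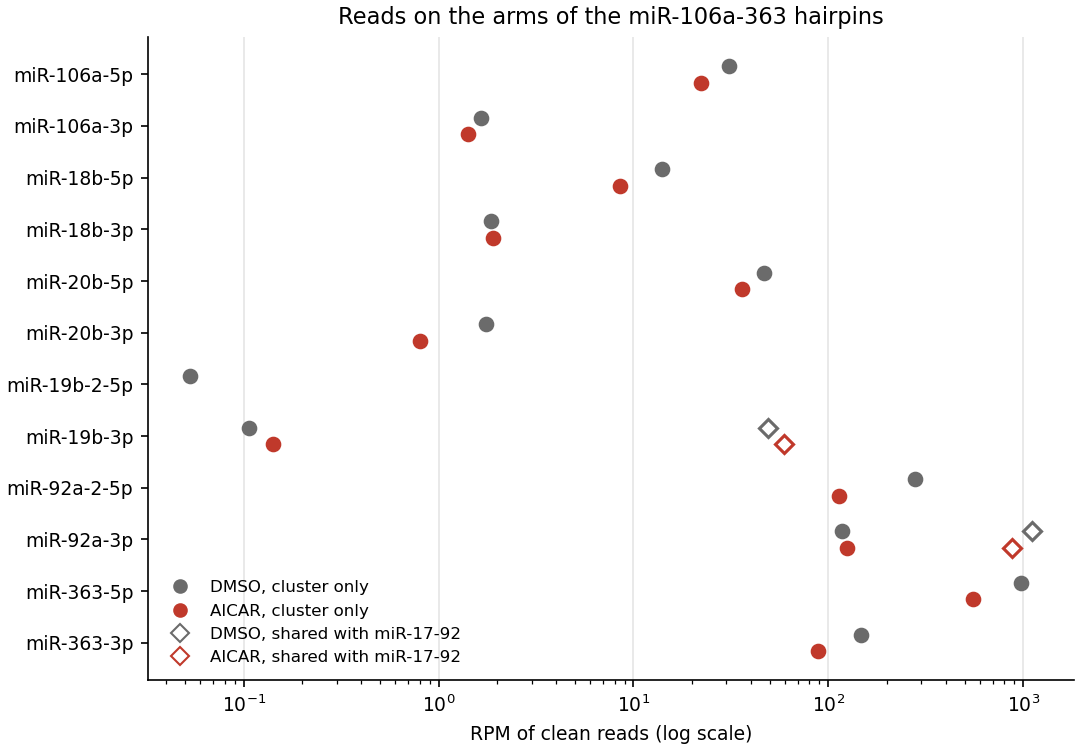
RPM of clean reads on a log scale for the 12 arms of the miR-106a-363 hairpins, in the DMSO (grey) and AICAR (red) libraries, 1 library each. Filled circles are tags that match only the cluster and open diamonds are tags shared with miR-17-92. The shared tags of miR-92a-3p (1104 and 879 RPM) and the own tags of miR-363-5p (974 and 552 RPM) lie furthest to the right, and a value of 0 is not drawn.

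Mir363, which has no counterpart in miR-17-92, had the most reads of its own in the cluster, and its 5p strand was the more abundant. MiR-363-5p had 18380 reads with DMSO (974 RPM) and 11636 with AICAR (552 RPM). It thus ranked 27th of the 508 miRNAs in the DMSO library and 44th in the AICAR library, with a fold change of 0.566 (0.553 to 0.580). The 3p strand, which carries the miR-92 seed, had 2779 reads with DMSO (147 RPM) and 1866 with AICAR (88.5 RPM), a fold change of 0.601 (0.566 to 0.637). Both strands of the hairpin were lower with AICAR, and their proportion stayed close. The 3p strand was 13.1% of the Mir363 reads with DMSO (95% Wilson interval 12.7% to 13.6%) and 13.8% with AICAR (13.2% to 14.4%), a difference that did not pass Fisher's exact test (two-sided, Benjamini-Hochberg adjusted over 6 hairpins, p = 0.135). Under 4 of the 5 other rules for counting tags it passed, with differences of 1.42 to 4.43 percentage points.

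The ends of the Mir363 strands were not alike. MiR-363-5p began at the same base in 98.2% of its reads in both libraries and was mostly 22 nt (57.9% and 55.9%) or 23 nt long (39.8% and 42.8%). MiR-363-3p had another start 1 base later, which moves the seed. These tags show both starts, with bases 2 to 8 in capitals.
miR-363-3p, first start: aATTGCACggtatccatctgta
miR-363-3p, start 1 nt later: aTTGCACGgtatccatctgta

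Reads with the later start were 1165 of the miR-363-3p reads with DMSO (41.9%) and 626 with AICAR (33.5%), and their fold change was 0.481 (0.436 to 0.530). Reads with the first start, which keep the miR-92 seed, numbered 1583 and 1216, a fold change of 0.687 (0.637 to 0.741). The intervals of the fold changes do not overlap, so over all lengths the later start was further below its DMSO level than the first start. Start and length were not separated. The later-start tag of 22 nt had 388 and 358 reads and that of 21 nt had 418 and 175. The first-start tag of 22 nt had 802 and 597 reads and that of 21 nt had 130 and 64. Short and long tags differed as well, with 646 and 186 reads under 21 nt (0.258-fold, 0.218 to 0.304) and 2133 and 1680 reads of 21 nt or more (0.705-fold, 0.661 to 0.752). The lower level of miR-363-3p was thus smaller in size, but still present, without the short tags.

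MiR-363-3p also stood out for bases that are not in the hairpin. When up to 2 unmatched bases were allowed at the 3′ end, such tags made up 42.4% of its reads with DMSO and 52.7% with AICAR, and a single T was the addition in 72.4% and 77.1% of them. For miR-363-5p the share was 1.25% and 1.61%, for miR-106a-5p 15.5% and 19.9%, and for miR-20b-5p 9.49% and 12.5%. Untemplated uridine is a known addition to the 3′ ends of miRNAs and their precursors. These tags are not in the counts given above, and with them the miR-363-3p fold change was 0.731, against 0.601 without.

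**Figure D3:**
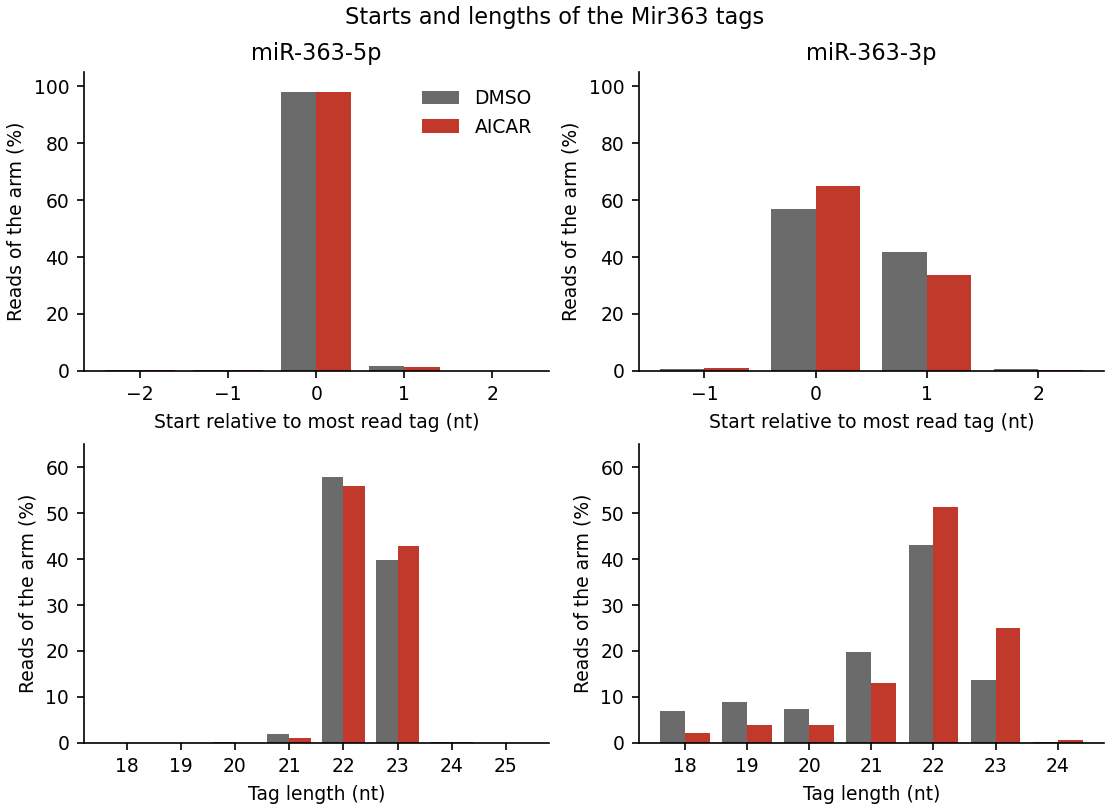
Share of the reads of miR-363-5p (left) and miR-363-3p (right), in percent, by start relative to the most read tag in nt (upper row) and by tag length in nt (lower row), for the DMSO (grey) and AICAR (red) libraries. The 5p strand has a single start in 98.2% of reads, whereas the 3p strand has another start in 41.9% (DMSO) and 33.5% (AICAR) and shorter tags that are fewer with AICAR.

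The strands of Mir92-2 differed from each other. MiR-92a-2-5p, the strand opposite to the mature miR-92a, had 5277 reads with DMSO (280 RPM) and 2397 with AICAR (114 RPM), a fold change of 0.406 (0.387 to 0.427). It was 1 of the 2 arms of the cluster at most 0.5-fold. Its most read tag was 23 nt long, with 4220 and 2094 reads, whereas the 22 nt RefSeq form had 480 and 137. The 5p strand of the paralog hairpin, miR-92a-1-5p, was also lower, with 1458 and 840 reads (0.515-fold, 0.473 to 0.562), and miR-25-5p of the miR-106b-25 cluster had 16606 and 15276 reads (0.823-fold, 0.805 to 0.841). The miR-92a-2-5p interval lies below both.

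The 3p strand, miR-92a-3p, had 20840 reads with DMSO (1104 RPM) and 18541 with AICAR (879 RPM) that match both Mir92-2 and Mir92-1, a fold change of 0.796 (0.780 to 0.812). A further 2229 reads with DMSO (118 RPM) and 2629 with AICAR (125 RPM) matched Mir92-2 only, a fold change of 1.06 (0.997 to 1.12) that turned to 0.774 relative to miRNA reads, 0.942 with TMM and 0.987 with median-ratio scaling. Summed over both copies, the miR-92a-3p reads were 31995 and 37032, which gave 1.04-fold (1.02 to 1.05) relative to clean reads and turned to 0.760 relative to miRNA reads and 0.924 with TMM. The 3p strand thus made up 29.7% of the reads matching Mir92-2 alone with DMSO (28.7% to 30.7%) and 52.3% with AICAR (50.9% to 53.7%). Fisher's exact test between the libraries gave an adjusted p of 8.81e-142. This share counts the other strand at every length. It counts 3p reads almost only where the tag ran on into bases that differ from Mir92-1. Among all miR-92a-3p reads counted on Mir92-2, tags of 22 nt were 9.45% with DMSO and 12.3% with AICAR. The part of tag length in the difference between the shares was not tested.

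That share rests on the base that follows the shared stretch. The tags below, from the deposited files, are the 21 nt mature miR-92a-3p and 1 base more, which is in capitals.
miR-92a-3p with A: tattgcacttgtcccggcctgA
miR-92a-3p with T: tattgcacttgtcccggcctgT

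The form with A matches Mir92-2 alone and had 2176 reads with DMSO and 2593 with AICAR, nearly all of the reads counted for that copy. The form with T matches Mir92-1 alone and had 8675 and 15409 reads. The forms with C, 4 and 4 reads, and with G, 0 and 5 reads, match neither. An A or T that was added after cutting looks the same as these forms: on miR-25-3p, where the hairpin continues with C, tags with A had 456 and 554 reads and tags with T had 284 and 357, against 63032 and 77093 for the mature form. A read of Mir92-2 and an adenylated read of Mir92-1 therefore cannot be told apart. Without the 3p arm of Mir92-2 the fold change of the cluster's own reads was 0.551.

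The fold change of the shared miR-92a-3p tags also depended on their length. The most read tag, 20 nt long, had 15730 reads with DMSO and 13153 with AICAR, and the 21 nt mature form had 4182 and 4818. Of all miR-92a-3p reads counted on Mir92-2, 72.2% were shorter than 21 nt with DMSO and 64.8% with AICAR. With tags of at least 21 nt only, the shared miR-92a-3p reads numbered 4188 and 4822, a fold change of 1.03 in place of 0.796. That value is close to 1, relative to clean reads and without an interval.

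MiR-106a-5p and miR-20b-5p carry the miR-17 seed. MiR-106a-5p had 585 reads with DMSO (31.0 RPM) and 470 with AICAR (22.3 RPM), a fold change of 0.719 (0.635 to 0.813). MiR-20b-5p had 877 reads with DMSO (46.5 RPM) and 756 with AICAR (35.8 RPM), a fold change of 0.771 (0.699 to 0.851). Both were lower with AICAR, and their intervals overlap. Their most read tags equal the RefSeq mature forms, with 479 and 371 reads of miR-106a-5p and 657 and 570 of miR-20b-5p.

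The paralogs with this seed had fold changes above 1 relative to clean reads, but of the 4 only miR-93-5p kept that direction relative to miRNA reads (1.32), where miR-17-5p stood at 0.899, miR-20a-5p at 0.822 and miR-106b-5p at 0.895. MiR-17-5p had 2180 and 2985 reads (1.23-fold, 1.16 to 1.30) and miR-20a-5p 1043 and 1305 (1.12-fold, 1.03 to 1.22). MiR-106b-5p had 2404 and 3275 (1.22-fold, 1.16 to 1.29) and miR-93-5p 7022 and 14107 (1.80-fold, 1.75 to 1.85). The 6 miRNAs together had 748 RPM with DMSO and 1086 with AICAR. The share from the miR-106a-363 cluster was 10.4% with DMSO (9.87% to 10.9%) and 5.35% with AICAR (5.07% to 5.65%), a ratio within a library that needs no scaling between libraries. Fisher's exact test (two-sided) of these reads gave p = 2.64e-70, which compares the libraries.

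The miR-106a-5p, miR-18b-5p, miR-20b-5p and miR-363-3p strands were also each set against a paralog of the same seed, 4 pairs in all, with p-values from Fisher's exact test adjusted over the pairs by Benjamini-Hochberg. The ratio of miR-106a-5p to miR-17-5p was 0.268 with DMSO and 0.157 with AICAR (Fisher's exact test, adjusted p = 8.66e-15). The ratio of miR-20b-5p to miR-20a-5p was 0.841 and 0.579 (exact adjusted p = 9.28e-09), and that of miR-363-3p to miR-92a-3p of both copies was 0.0869 and 0.0504 (exact adjusted p = 2.49e-70). All 3 ratios were lower with AICAR, by factors of 0.587, 0.689 and 0.580, and with tags identical to the most read tag the last factor was 0.890 (ratios of 0.0510 and 0.0454). The ratio of miR-18b-5p to miR-18a-5p was 0.939 and 0.401 (exact adjusted p = 5.86e-12), and its dependence on short tags is given below.

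**Figure D4:**
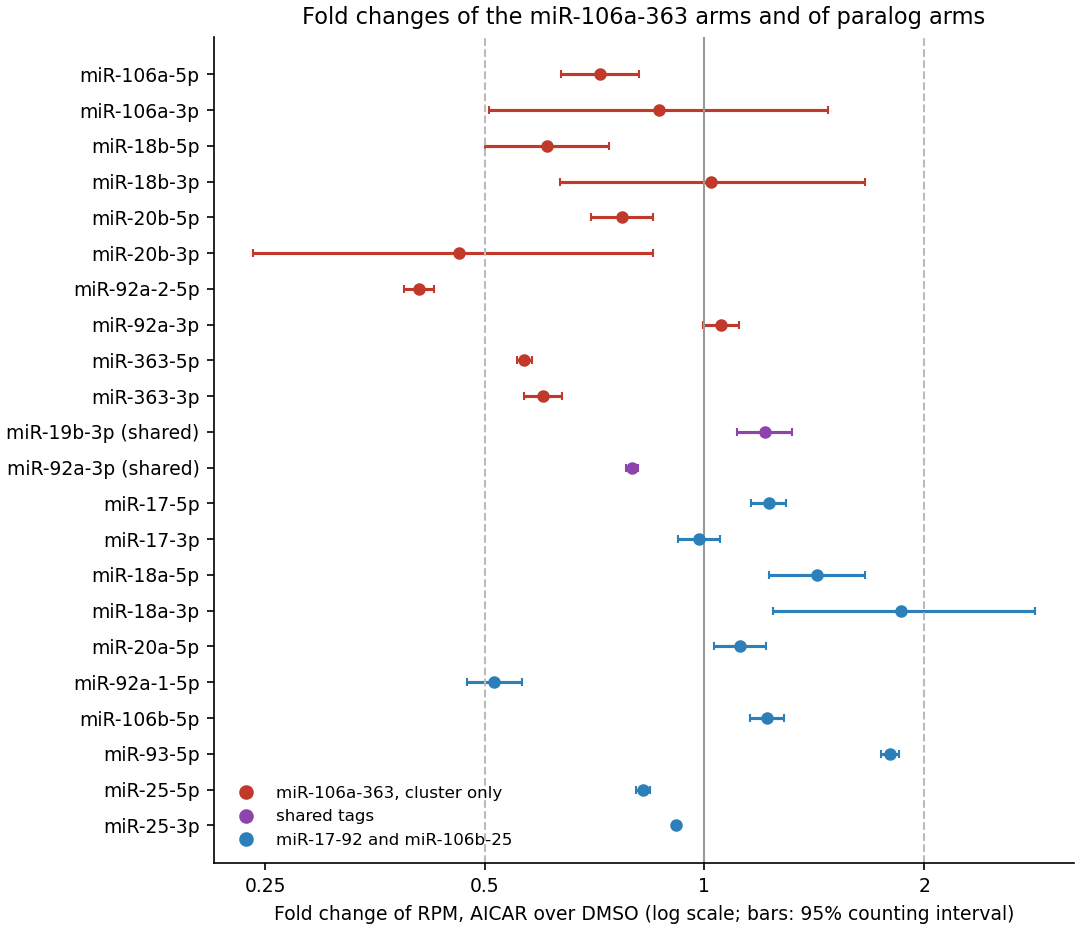
Fold change of RPM, AICAR over DMSO, on a log scale, for the arms of the miR-106a-363 cluster (red), the tags shared with miR-17-92 (purple) and arms of miR-17-92 and miR-106b-25 (blue). Bars are 95% counting intervals from 1 library per condition, the solid line marks 1 and the dashed lines 0.5 and 2. The red intervals of miR-106a-5p, miR-18b-5p, miR-20b-5p, miR-92a-2-5p and both miR-363 strands lie below 1. The blue intervals of miR-17-5p, miR-18a-5p, miR-18a-3p, miR-20a-5p, miR-106b-5p and miR-93-5p lie above 1. Of these, only miR-18a-5p (1.05), miR-18a-3p (1.37) and miR-93-5p (1.32) stayed above 1 relative to miRNA reads. The blue intervals of miR-92a-1-5p, miR-25-5p and miR-25-3p lie below 1, and that of miR-17-3p includes 1.

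Since miR-106a-5p is a single base away from the more abundant miR-17-5p, a read error could turn one into the other, and the tags around miR-17-5p measure how often. The most read miR-17-5p tag had 1542 reads with DMSO and 2038 with AICAR. The tag with U10A, which is miR-106a-5p, had 479 and 371. The other substitutions at that base had 1 read with DMSO and 0 with AICAR, and the 65 other substitutions at bases 1 to 22 had 14 and 23 reads in all, at most 2 and 4 each. At the last base, where untemplated additions also fall, the substitutions had 111 and 286 reads. Subtracting the mean of the other substitutions at base 10 took away 0.5 reads with DMSO and 0 with AICAR.

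**Figure D5:**
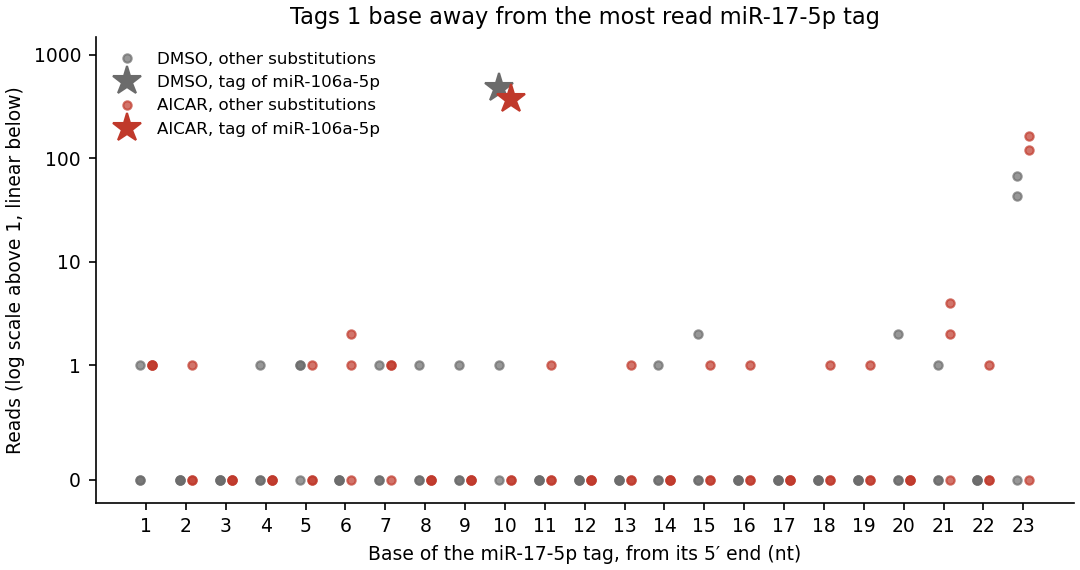
Reads (log scale above 1, linear below) of every tag that is 1 base away from the most read miR-17-5p tag, by the position of that base in nt from the 5′ end, in the DMSO (grey) and AICAR (red) libraries. Stars mark the tag of miR-106a-5p, at 479 and 371 reads, and dots the other substitutions, which reach 4 reads at most outside the last base.

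The 3p strands of these hairpins were rare. MiR-106a-3p had 31 reads with DMSO and 30 with AICAR (0.866-fold, 0.506 to 1.48), and the interval includes 1. MiR-20b-3p had 33 and 17 (0.461-fold, 0.241 to 0.852), the other arm of the cluster at most 0.5-fold, and its upper bound exceeds 0.5. The 3p share of Mir106a was 5.03% and 6% (adjusted p = 0.611, Fisher's exact test) and that of Mir20b 3.63% and 2.20% (adjusted p = 0.168), so no shift between strands was detectable at this depth.

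MiR-18b-5p, of the miR-18 seed, had 263 reads with DMSO (13.9 RPM) and 179 with AICAR (8.49 RPM), a fold change of 0.609 (0.501 to 0.739). Its paralog miR-18a-5p had 280 and 446 reads (1.43-fold, 1.22 to 1.66), and relative to miRNA reads it stood at 1.05. The share of the cluster in the reads of this seed was 48.4% with DMSO (44.3% to 52.6%) and 28.6% with AICAR (25.2% to 32.3%). The miR-18b-5p reads were mostly short. The most read tag was 18 nt long, the shortest length in the files, with 136 and 69 reads, and 89.7% of the reads with DMSO and 77.7% with AICAR were under 21 nt. For miR-18a-5p the same shares were 2.86% and 1.79%.

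The short form of miR-18b-5p is printed below with its last base in capitals, the first base at which it departs from miR-18a-5p.
miR-18b-5p, 18 nt: taaggtgcatctagtgcT

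The same stretch with A, which belongs to Mir18, had 2 and 3 reads, and with C or G it had 0. An 18 nt tag of Mir18b is thus told from miR-18a by its last base only, and a T added to a 17 nt piece would look the same. Reads of at least 21 nt within the limits numbered 27 and 40, a fold change of 1.33 (0.794 to 2.25), the opposite direction with an interval that includes 1. The limits leave out the 23 nt RefSeq form, which had 23 and 11 reads. With every tag of at least 21 nt, an alternative added after seeing the data, there were 51 and 51 reads and the fold change was 0.895 (0.595 to 1.35). The ratio of miR-18b-5p to miR-18a-5p over the same long tags was 0.187 and 0.116 (unadjusted p = 0.0303, Fisher's exact test), and 0.0993 and 0.0913 within the limits. The interval of miR-18b-5p lay below 1 only with the tags under 21 nt included, a class that was also smaller with AICAR among all hairpin reads.

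MiR-18b-3p had 35 reads with DMSO and 40 with AICAR (1.02-fold, 0.633 to 1.66), with no detectable difference and a fold change of 0.750 relative to miRNA reads. Its share of the Mir18b reads was 11.7% and 18.3% (adjusted p = 0.13, Fisher's exact test). This difference of 6.52 percentage points passed 0.05 under 4 of the 5 other rules for counting tags, and with tags of at least 21 nt it was -6.37.

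MiR-19b-3p is the member that cannot be assigned. It had 924 reads with DMSO (49.0 RPM) and 1249 with AICAR (59.2 RPM) that match Mir19b-2 and Mir19b-1 alike, a fold change of 1.21 (1.11 to 1.32), and only 2 and 3 reads that match Mir19b-2 alone. Against miRNA reads in place of clean reads the fold change was 0.888, so its direction depends on the scaling. The other miRNA of this seed, miR-19a-3p of miR-17-92, had 24 and 43 reads (1.60-fold, 0.951 to 2.76). Of the 3 reads of Mir19b-2 alone with DMSO, 2 were on the 3p arm, and with AICAR all 3 were (adjusted p = 1, Fisher's exact test).

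By seed, the cluster's own reads were 10.4% or less of the listed miRNAs of a family in these cells, except for miR-18. The size of the miR-18 share depends on tags under 21 nt. With all lengths the ratio of miR-18b-5p to miR-18a-5p was 0.939 with DMSO and 0.401 with AICAR. Over longer tags without limits on the ends it was 0.187 and 0.116. Over longer tags within the limits it was 0.0993 and 0.0913, but these limits leave out the RefSeq form of miR-18b-5p and keep that of miR-18a-5p. The miR-92 seed family was the most abundant, at 7376 RPM with DMSO and 6920 with AICAR, with miR-25-3p alone at 98736 and 101023 reads. Reads of this family that belong only to the cluster, miR-363-3p and the A-ending miR-92a-3p, were 3.60% (3.50% to 3.70%) and 3.08% (2.99% to 3.17%). A further 15.0% and 12.7% were shared between the copies of miR-92a. Families were counted over the members and the listed relatives only, so any other miRNA with the same seed is left out. Each miRNA was counted with every start, so these shares include the 1165 and 626 miR-363-3p reads whose later start moves the seed. The miR-18 family stood at 28.8 and 29.6 RPM, and the miR-19 family at 50.3 and 61.4 RPM, of which 97.3% and 96.4% were shared.

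Set against its paralog clusters as a whole, miR-106a-363 had the lower fold change. Reads that matched only miR-17-92 numbered 15648 with DMSO and 23423 with AICAR, a fold change of 1.34 (1.31 to 1.37) that was 0.983 relative to miRNA reads, where miR-106a-363 was 0.431. Without the 3p strand of Mir92-1 it was 1.01 (0.974 to 1.04), and 0.739 relative to miRNA reads. Reads that matched only miR-106b-25 numbered 127198 and 136453 (0.960-fold, 0.952 to 0.967), and their fold change was 0.704 relative to miRNA reads. The interval of the miR-106a-363 total, 0.577 to 0.598, lies below each of these intervals relative to clean reads. The totals rest on unlike arms. MiR-25-3p held 98736 and 101023 of the miR-106b-25 reads, and miR-363-5p 60.3% and 58.1% of the miR-106a-363 reads. The reads shared with miR-17-92 were 21764 and 19790, a fold change of 0.814 (0.798 to 0.829).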

How the data were processed

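Small RNA of J1 mouse ES cells was sequenced in 1 library per condition (DMSO and 1 mM AICAR, 24 h). The control is titled J1_U and its treatment label is DMSO. The authors removed low-quality and contaminant reads and collapsed the clean reads into tags, and the deposited values are raw read counts per tag beside the tag's length in nt (18 to 44), with no positions. The labels name build mm9, and the study mapped tags with SOAP. The labels name a TruSeq RNA kit, and the study describes adaptor ligation to size-selected sRNA. Here tags were matched to GENCODE vM21 hairpins (GRCm38), and genome-wide matches were not analysed here. RefSeq mature sequences were found for 11 of the 12 arms.

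The most read tag of each arm was the reference, and copies with the same reference were 1 miRNA. Background counts covered miRNAs that reached 1 RPM in a library, with fold thresholds of 2 and 0.5. No quasi-likelihood test could be fitted without replicates, and edgeR gave only TMM factors. Counts were set against each other by exact binomial intervals, Wilson intervals for shares, and two-sided Fisher's exact tests with a threshold of 0.05. PCR reads carry no molecular identifiers, so all intervals cover counting error only.

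All 12 arms are named, with the arms of miR-17-92, miR-106b-25, miR-92b and miR-32 as the fixed list of relatives. Members and lists were chosen with earlier results of these data known. The alternatives were other denominators, rules for counting tags, filters, and a subtraction of read errors. The totals without Mir363, without Mir92-2, without both or without the 3p arm of Mir92-2, and long miR-18b-5p tags without limits on the ends, were chosen later, after seeing the data. Counting and intervals were tested on simulated data. Python 3.11.15, numpy 2.4.6, scipy 1.17.1, matplotlib 3.10.9, R 4.3.3 and edgeR 4.0.16 were used.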

Additional observations from a re-analysis of the deposited data

Results flagged for a closer look

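Reads on the 3p arm of Mir18b that fell outside the limits of the arm were 5 with DMSO and 16 with AICAR, 2.86-fold higher (95% exact interval 1.00 to 9.99). They entered the counts only under the rule without limits on the tag ends. They stood out because they were above the control library, but the interval starts at 1 and comes from 8 such comparisons over the arms of the cluster. In the other direction, the intervals of miR-18b-5p (0.410-fold, 0.181 to 0.870), miR-20b-5p and miR-19b-3p (each 0.128-fold, 0.00284 to 0.995) lay below 1. The intervals of the remaining arms included 1.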

How the results depend on the processing

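The fold change of the reads that match only the cluster stayed below 1 under every alternative tried. It was 0.431 relative to the reads assigned to miRNAs, 0.524 with TMM, 0.549 with median-ratio scaling, 0.540 with identical tags only and 0.617 with untemplated 3′ bases. In alternatives added after seeing the data it was 0.625 without Mir363, 0.732 without Mir363 and Mir92-2, and 0.551 without the 3p arm of Mir92-2. For the shared tags the values were 0.597, 0.726 and 0.761 with these scalings and 0.761 with identical tags, and with tags of at least 21 nt the direction turned, to 1.06. Arms that turned were miR-18b-5p (1.33) and shared miR-92a-3p (1.03) with tags of at least 21 nt, and shared miR-19b-3p (0.888) relative to miRNA reads. The own reads of miR-92a-3p (0.774, 0.942 and 0.987) and miR-18b-3p (0.750, 0.912 and 0.956), whose intervals include 1, turned with miRNA reads, TMM and median-ratio scaling. The long-tag values of 1.06 and 1.03 are close to 1, relative to clean reads and without an interval. Why the long tags differ was not tested.

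The 3p share of Mir18b passed the threshold with identical tags (a difference of 16.9 percentage points), the same start (6.47), no limits on the ends (10.5) and untemplated bases (9.73), and that of Mir363 with identical tags (1.42), the same start (1.55), at least 21 nt (2.21) and untemplated bases (4.43). Relative to miRNA reads, 24 miRNAs were at least 2-fold and 112 at most 0.5-fold, against 61 and 51. The counts were 140 and 118 without the filter on low values, 23 and 25 with at least 10 RPM, and 33 were at most 0.5-fold with tags of at least 21 nt.

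No paired analysis was possible because each condition has 1 library. Arms with few reads have wide intervals, and the spread between cultures is not known.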
